A study of Mus musculus with 2 samples.

Results

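The miR-15, miR-16, miR-195 and miR-497 family was followed in microRNA sequencing of gastrocnemius, a calf muscle. Its members were taken by gene name from the annotation, as Mir15a, Mir15b, Mir16-1, Mir16-2 and every Mir195 or Mir497 gene with or without a letter suffix. This gave 8 of the 2202 annotated miRNA genes. The rule itself uses names and no measured value, but members were chosen with earlier results of these data known. All samples belong to 1 group of B6CASTF1/J females, for which the labels name no treatment. They are the F1 cross of C57BL/6 with CAST mice and were 10 days old. The group holds 2 animals, which the labels number as biological replicates 1 and 2, so the data give levels and the spread between these animals but no contrast between conditions. The libraries held 3510897 sense reads on miRNA genes in replicate 1 and 3949733 in replicate 2, and each gene's level is its number of such reads per 1e6 (CPM).

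MicroRNAs are RNAs of about the length of the reads counted here, cut in pairs of arms (5p and 3p) from a hairpin precursor, and they lower the output of messenger RNAs that pair with their seed, bases 2 to 8. The miR-15 family is known for restraining the cell cycle, through targets such as cyclins D1 and E1, Cdk6 and the survival factor Bcl2. In striated muscle, miR-195 and other members are known to rise around birth as cardiomyocytes leave the cell cycle, and miR-195 and miR-497 are known from the quiescence of muscle satellite cells.

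The shared seed is what makes these genes a family, so the 5p mature RNAs are shown first. Each is written 5′ to 3′ from RefSeq (build GRCm38.p6) with the seed in capitals.
miR-16-5p: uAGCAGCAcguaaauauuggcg
miR-195a-5p: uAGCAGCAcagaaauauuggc
miR-15a-5p: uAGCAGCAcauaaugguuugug
miR-15b-5p: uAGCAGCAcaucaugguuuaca
miR-497a-5p: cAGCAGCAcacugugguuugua
miR-195b: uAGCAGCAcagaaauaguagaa
The same seed occurs in 10 of 1679 mature names of the RefSeq table, 0.596%. Against miR-16-5p, counted base by base from the 5′ end, miR-195a-5p differed at 2 positions (G10A and U11G), miR-15a-5p at 6, miR-15b-5p at 8 and miR-497a-5p at 11. The miR-15a-5p and miR-15b-5p RNAs differed from each other at 4 of 22 positions and shared their first 11 bases. The remaining member, Mir497b, lies on the strand opposite Mir497 and its mature RNA has another seed.

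The members lie at 4 places in the genome (build mm10). Mir15a (ENSMUSG00000093007.1, chromosome 14, 61632027 to 61632110, minus strand) and Mir16-1 (ENSMUSG00000092995.1, 61631880 to 61631972) are 54 bases apart in Dleu2, a long noncoding RNA gene, Mir15a in an intron and Mir16-1 over an exon of an annotated transcript. Mir15b (ENSMUSG00000065580.2, chromosome 3, 69009772 to 69009835, plus strand) and Mir16-2 (ENSMUSG00000065606.1, 69009902 to 69009996) are 66 bases apart in an intron of Smc4, which encodes a condensin subunit that compacts mitotic chromosomes. Mir497 (ENSMUSG00000105220.1, chromosome 11, 70234717 to 70234800, plus strand) and Mir195a (ENSMUSG00000065411.2, 70235042 to 70235135) are 241 bases apart, and no annotated gene on their strand contains them. Mir497b (ENSMUSG00000070109.2, 70234692 to 70234816, minus strand) covers all 84 bases of Mir497 from the other strand. Mir195b (ENSMUSG00000098437.1, chromosome 2, 56785811 to 56785907, plus strand) stands alone.

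Identical sequence limits which reads could be counted, because the counting left out reads that match more than 1 place. Mir16-1 and Mir16-2 share 23 bases that hold the whole of miR-16-5p, shown in capitals within the precursors.
Mir16-1: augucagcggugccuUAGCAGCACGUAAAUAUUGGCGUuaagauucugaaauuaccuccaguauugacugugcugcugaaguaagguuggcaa
Mir16-2: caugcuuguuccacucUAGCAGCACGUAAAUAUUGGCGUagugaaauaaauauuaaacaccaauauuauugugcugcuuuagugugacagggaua
A read inside those 23 bases fits both genes, so the counts of Mir16-1 and Mir16-2 leave out reads of their main arm that do not reach past this stretch. Their 3p arms differ and can be told apart.
miR-16-1-3p: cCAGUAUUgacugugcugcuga
miR-16-2-3p: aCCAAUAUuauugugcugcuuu
Of the 8 members, these 2 shared a window of 22 bases with another annotated precursor, where 46.9% of all miRNA genes and 17.8% of the 332 detected genes (at least 2 CPM in each library) did so. The longest stretch was 16 bases for Mir195a, shared with Mir195b, and 12 or 13 bases for Mir15a, Mir15b, Mir497 and Mir497b. Reads aligned to several places numbered 3469647 in replicate 1 and 4718603 in replicate 2, and how many of them are miR-16-5p cannot be read from counts per gene.

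**Figure D1:**
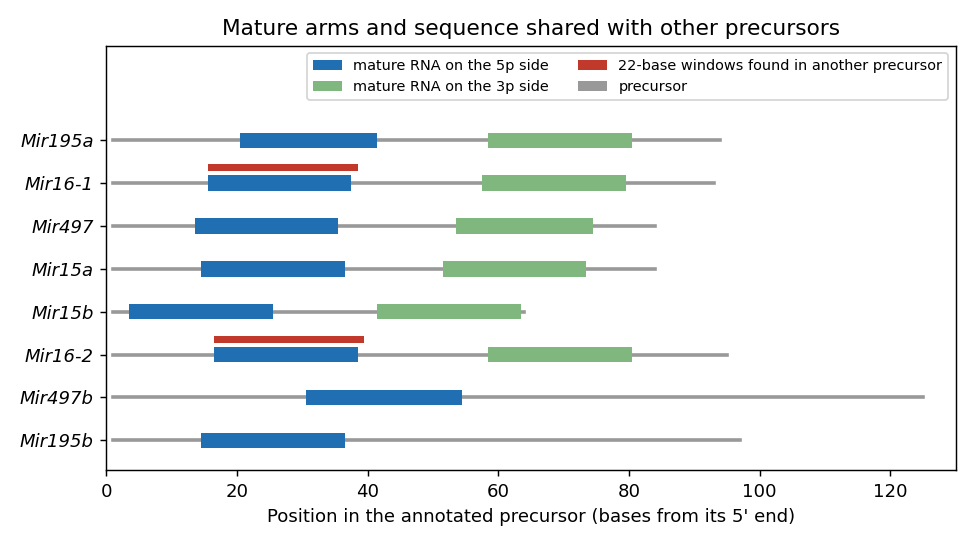
Each line is a member's annotated precursor, with position in bases from its 5′ end. Blue and green bars are mature RNAs on the 5p and 3p side, and the red bars, present on Mir16-1 and Mir16-2 alone, mark the 23 bases covered by 22-base windows found in another precursor.

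In both animals Mir195a had the highest count of the family and 6 of the 8 members were detected. The family's share of sense reads was 0.481% in replicate 1, with a Wilson 95% interval of 0.474% to 0.488%. It was 0.487% in replicate 2, with an interval of 0.480% to 0.494%, and the mean was 0.484% ± 0.00411 (SD, n = 2). The Mir195a and Mir497 locus contributed 60.4% ± 0.306 of the family's counted reads, the Dleu2 locus 28.8% ± 0.235 and the Smc4 locus 10.9% ± 0.541. The Dleu2 and Smc4 loci miss reads inside the 23 bases that Mir16-1 and Mir16-2 share, while the Mir195a and Mir497 locus has no such gap. The shares and order of the loci thus hold for uniquely placed reads only. The family's share of sense reads was 0.384% ± 0.00665 without the reads counted on Mir16-1 and Mir16-2. Each interval is computed within 1 library, so it covers counting error only and not the spread between animals. The reads carry no molecular identifiers, so repeated reads of a molecule could not be told apart. A read stands for 1 small RNA whatever the length of its precursor, so counts were not divided by length, and how well each RNA sequence was captured in the libraries was not tested. In bulk tissue, fewer cells that express a gene and less RNA per cell cannot be told apart.

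Mir195a, the member with the highest count of uniquely placed reads, had 8149 reads in replicate 1 and 9223 in replicate 2. These were 2321 and 2335 CPM, a mean of 2328 ± 9.92 CPM (SD, n = 2), at rank 57 of all miRNA genes. Its partner Mir497, which carries the same seed on the same strand, had 2010 and 2427 reads, or 572.5 and 614.5 CPM (593.5 ± 29.7 CPM). Mir195a thus stood above Mir497 in both animals with no overlap. The genes next to Mir195a in rank were Mir27b (2372 ± 144 CPM) and Mir125a (2367 ± 349 CPM) above it and Mir28a (2263 ± 95.1 CPM) and Mir149 (2220 ± 73.8 CPM) below it. The ranges of Mir27b and Mir125a over the animals include that of Mir195a, and the range of Mir28a overlaps it. With 2 libraries no gene could be ranked by likeness of its pattern across samples.

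In the Dleu2 locus, known for its loss in chronic lymphocytic leukaemia, Mir16-1 had the higher count. It had 2944 and 3192 reads in replicates 1 and 2, which gave 838.5 and 808.2 CPM (823.3 ± 21.5 CPM). Mir15a had 1892 and 2378 reads, which gave 538.9 and 602.1 CPM (570.5 ± 44.7 CPM). Mir16-1 was above Mir15a in both animals although its 5p arm is shared with another gene and Mir15a's is not.

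In the Smc4 locus the order was the other way round. Mir15b had 1259 and 1317 reads, or 358.6 and 333.4 CPM (346.0 ± 17.8 CPM). Mir16-2 had 640 and 698 reads, or 182.3 and 176.7 CPM (179.5 ± 3.94 CPM). In uniquely placed reads both genes were the lowest of the detected members, and Mir16-2 was last in both animals.

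Ordered by mean CPM, the family ran Mir195a, Mir16-1, Mir497, Mir15a, Mir15b and Mir16-2, and the first exceeded the last by 13.0-fold. Mir497 and Mir15a were the neighbours whose ranges over the animals overlapped. The other 4 neighbouring pairs did not overlap, with ratios of means of 2.83 for Mir195a over Mir16-1, 1.39 for Mir16-1 over Mir497, 1.65 for Mir15a over Mir15b and 1.93 for Mir15b over Mir16-2. The places of Mir16-1 and Mir16-2 hold for uniquely placed reads only.

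**Figure D2:**
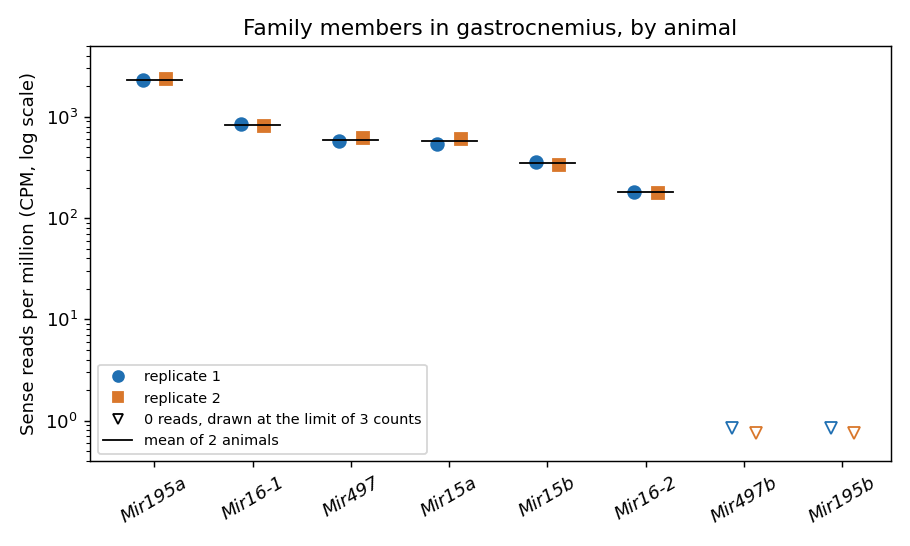
Sense reads per 1e6 (CPM) on a log scale for each member, with circles for replicate 1, squares for replicate 2 and a line at the mean. The 6 detected members run from 2328 down to 179.5 CPM with the animals close together, and Mir497b and Mir195b, with 0 reads, are drawn as open triangles at the limit that a count of 0 allows.

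The other 2 members had no sense read in either library, which at 3 counts per library allows levels of up to 0.854 and 0.760 CPM in replicates 1 and 2. Mir195b shares its first 16 mature bases with miR-195a-5p and differs from it at 3 of 21 positions, so a read of the full mature RNA is distinguishable. The count of Mir497b depends on the strand of the reads. Its mature RNA and the 3p arm of Mir497 come from opposite strands and overlap by 17 bases.
miR-497a-3p: cAAACCACacugugguguuag
miR-497b: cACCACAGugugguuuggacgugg
All 2010 and 2427 reads at this place were counted on the strand of Mir497, in a sense column recognised in part from this pair. Without strand they were ambiguous, and Mir497 and Mir497b both stood at 0.

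Partner genes of a locus did not yield equal counts, and the ratio differed from locus to locus. Mir195a exceeded Mir497 by 4.05-fold in replicate 1 (exact 95% interval 3.86 to 4.26) and 3.80-fold in replicate 2 (3.63 to 3.98). Mir15b exceeded Mir16-2 by 1.97-fold (1.79 to 2.17) and 1.89-fold (1.72 to 2.07). Mir15a stood at 0.643 of Mir16-1 in replicate 1 (0.606 to 0.681) and 0.745 in replicate 2 (0.706 to 0.786). The intervals of the animals overlapped for Mir195a over Mir497 and for Mir15b over Mir16-2 but not for Mir15a over Mir16-1. On the log2 scale the ratios averaged 1.97 ± 0.0660, 0.95 ± 0.0426 and -0.53 ± 0.151 (SD, n = 2) in that order, so the loci differed by more than the animals did. The reads missing from Mir16-1 and Mir16-2 would enter the denominators of both Mir15 ratios, so neither is a ratio of the mature RNAs.

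The copies Mir16-1 and Mir16-2 kept a closely similar ratio in both animals. Mir16-1 had 4.60 times the reads of Mir16-2 in replicate 1 (exact 95% interval 4.22 to 5.02) and 4.57 times in replicate 2 (4.21 to 4.97). Between the Mir15 genes, Mir15a had 1.503 times the reads of Mir15b in replicate 1 (1.40 to 1.62) and 1.81 times in replicate 2 (1.69 to 1.93). The Dleu2 gene thus had the higher count for both names, and the intervals overlapped between animals for Mir16 and not for Mir15. Reads inside the 23 bases that Mir16-1 and Mir16-2 share are in neither count. Their ratio thus holds for uniquely placed reads only and does not give the output of miR-16-5p from each copy.

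**Figure D3:**
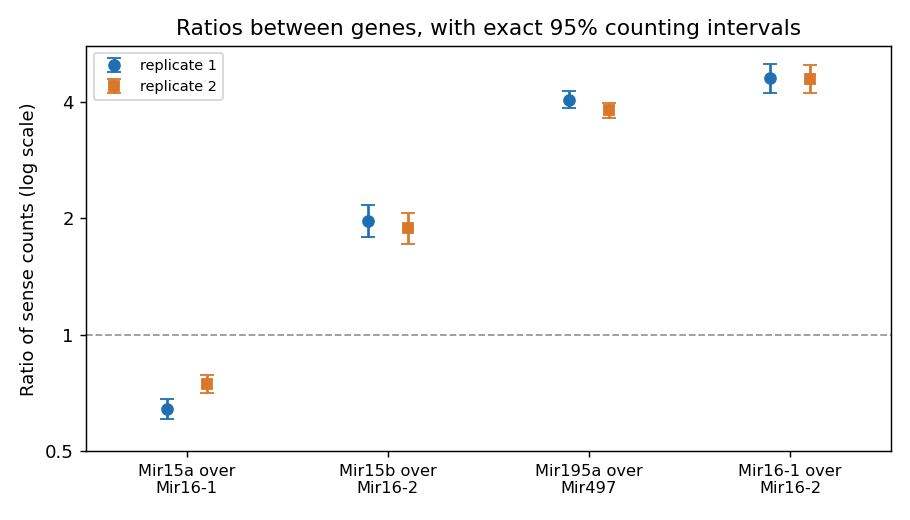
Ratio of sense counts between pairs of members on a log scale, with circles for replicate 1, squares for replicate 2 and bars for the exact 95% counting interval. Mir15a lies below 1 against Mir16-1, while the other 3 ratios plotted lie above 1 in both animals.

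Between the 2 libraries the family differed little. Each gene was compared between them with an exact conditional binomial test, adjusted by Benjamini-Hochberg over 395 genes with at least 10 counts, and a call also needed a 2-fold difference. This compares 2 libraries, each of a single animal, and its p-values measure counting error only. None of the 6 tested members was called (0 of 6), where 7.09% of all genes tested were. Among the 156 genes with at least the 1338 reads of the lowest tested member, a set chosen after seeing the data, 1 was called (0.641%) and 71.8% passed without the fold limit. Without the fold limit 2 of the 6 passed, where 41.3% of all genes tested did, and the same 2 had an unadjusted p under 0.05, where 47.1% of all genes tested did. Both were higher in replicate 2, where 17.0% of all genes passed in that direction. No member passed in the other direction (0 of 6), where 24.3% of all genes did.

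The members that passed without the fold limit were Mir15a and Mir497. Mir15a was 1.12-fold higher in replicate 2 (95% interval 1.05 to 1.19, exact adjusted p = 0.0011). Mir497 was 1.07-fold higher in replicate 2 (1.01 to 1.14, exact adjusted p = 0.046), and its exact adjusted p was 0.0645 with TMM factors and 0.0785 with no filter on counts. Mir195a had a log2 ratio of replicate 2 over replicate 1 of 0.01, Mir16-2 of -0.04, Mir16-1 of -0.05 and Mir15b of -0.10. With median-of-ratios size factors, which moved all ratios up by 0.05, Mir195a passed without a fold limit (log2 ratio 0.06, exact adjusted p = 0.0128).

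The 6 members had a median absolute log2 ratio of 0.08, against 0.27 over the 395 genes tested and 0.13 over those 156 genes. All 6 lay within 1.25-fold of equality, where 57.5% of all genes tested and 85.9% of the 156 did. Of the members, 3 were higher and 3 lower in replicate 2, with a median log2 ratio of -0.02 against -0.03 over all genes tested.

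**Figure D4:**
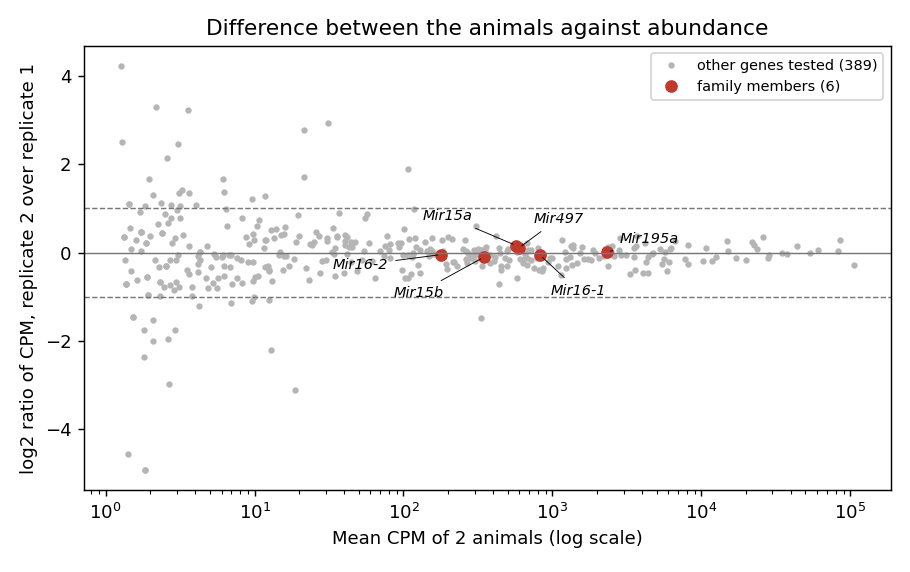
The log2 ratio of replicate 2 over replicate 1 for the 395 genes tested against mean CPM on a log scale, with the 6 tested members in red and dashed lines at 2-fold. The members lie between -0.10 and 0.16, well inside the dashed lines.

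Outside the family, the same seed is carried by Mir322, Mir6342, Mir6353 and Mir6419. The last 3 had no read in either library.
miR-322-5p: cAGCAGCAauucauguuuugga
Mir322 (chromosome X), a gene known to rise as myoblasts leave the cell cycle, had 47454 and 64497 reads, or 13516 and 16329 CPM (14923 ± 1989 CPM). It alone had 2.81 times the counts of the whole family in replicate 1 and 3.35 times in replicate 2. The family therefore held 26.3% and 23.0% of the counted reads of all 11 genes with the seed. Counts sum both arms of a hairpin, so these are shares of gene counts and not of seed-bearing RNA. The family side also misses reads inside the 23 bases that Mir16-1 and Mir16-2 share, while Mir322 shares no 22-base window. The ratios and shares thus hold for uniquely placed reads only.

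A list of other growth-restraining miRNA genes ran from far above to far below the family. Of its 8 genes 7 were detected, led by Mir26b (22658 ± 1966 CPM) and Mir322. Mir503, the neighbour of Mir322, stood at 378.6 ± 41.7 CPM, with a mean between those of Mir15a and Mir15b. Its range over the animals, 349.1 to 408.2 CPM, overlapped that of Mir15b, 333.4 to 358.6 CPM. The p53 targets Mir34a (91.5 ± 10.2 CPM), Mir34c (17.0 ± 2.55 CPM) and Mir34b (2.91 ± 2.33 CPM) were below every detected member. The counts of Mir26a-2 (34.5 ± 1.68 CPM) and Mir26a-1 (11.99 ± 1.66 CPM) were also below. These copies share 22-base windows, so their places hold for uniquely placed reads only and give no level of miR-26a. In the comparison of the libraries 1 of 8 was called, Mir34b with 16 and 5 reads, where 7.09% of all genes tested were. Without the fold limit 2 were higher in replicate 2 (Mir322 and Mir26b), where 17.0% of all genes tested passed in that direction. Another 2 were lower (Mir503 and Mir34b), where 24.3% of all genes did. The list median log2 ratio was 0.14 against -0.03 over all genes tested.

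The growth-linked miR-17-92 and miR-106b-25 clusters, known from proliferating cells, summed to more counted reads than the family in both animals. The 9 genes of these clusters held 5957 and 5949 CPM in replicates 1 and 2, where the family held 4812 and 4870 CPM. That was 1.24 times the family in replicate 1 and 1.22 times in replicate 2. Both sums miss reads that match more than 1 place, since Mir92-1 and Mir19b-1 here and the Mir16 copies in the family share 22-base windows. Mir17 led them at 1928 ± 9.08 CPM, below Mir195a in both animals. It was followed by Mir93 (1378 ± 64.2 CPM), Mir20a (802.8 ± 36.9 CPM), Mir92-1 (755.2 ± 129 CPM), Mir106b (436.2 ± 23.6 CPM), Mir18 (337.3 ± 10.99 CPM) and Mir25 (311.9 ± 3.58 CPM). Mir19a (2.36 ± 1.32 CPM) and Mir19b-1 (2.31 ± 0.761 CPM) missed 2 CPM in 1 library each. None of the 9 was called by the exact binomial test (0 of 9), where 7.09% of all genes tested were. Without the fold limit Mir20a and Mir93 were higher in replicate 2, where 17.0% of all genes tested passed in that direction. Mir92-1 was lower, where 24.3% of all genes did. The list median log2 ratio was 0.07.

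**Figure D5:**
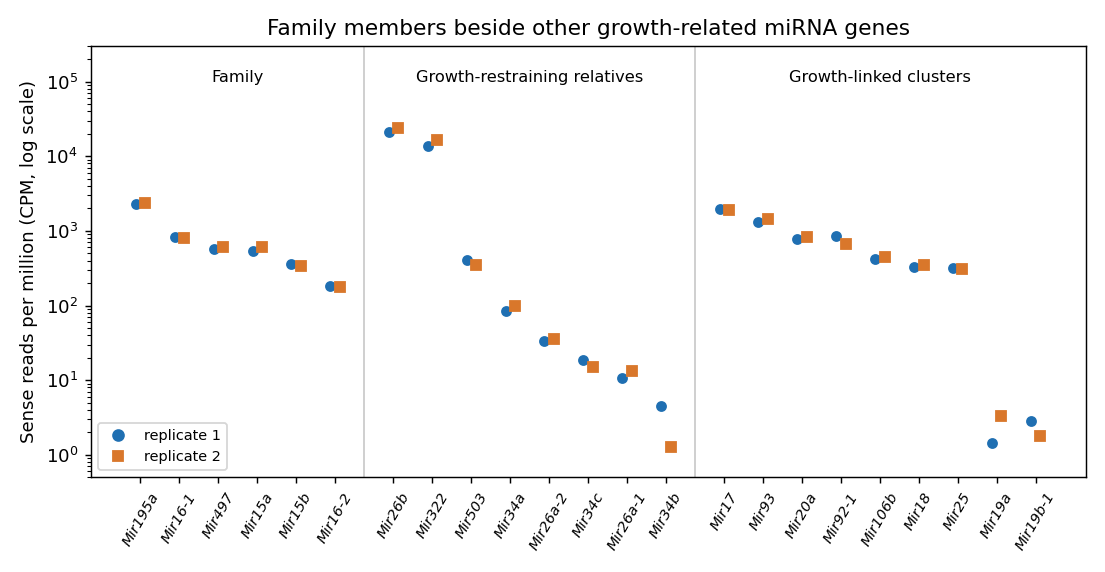
Sense reads per 1e6 (CPM) on a log scale for the 6 detected members, 8 growth-restraining relatives and 9 genes of growth-linked clusters, with circles for replicate 1 and squares for replicate 2. The members span 179.5 to 2328 CPM, below Mir26b and Mir322. The cluster genes span more, from Mir17 at 1928 CPM down to Mir19b-1 at 2.31 CPM.

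The tissue label was checked against marker miRNAs. Of 9 skeletal muscle genes 8 were detected, led by Mir206, and they summed to 116658 and 96096 CPM in replicates 1 and 2. The sum follows Mir206, which had a log2 ratio of replicate 2 over replicate 1 of -0.28, while the other 7 of the 8 tested genes had ratios above 0 and the list median was 0.32. Both copies of Mir1a and of Mir133a share 22-base windows, so the order and the sum hold for uniquely placed reads only. Genes of the miR-15 family are also expressed in blood and vessel cells, so those markers are given beside the family, and their part in its levels was not tested. Both erythroid genes were detected, with sums of 2066 and 1865 CPM, and all 5 leukocyte genes, with sums of 1099 and 974.2 CPM, both lower in replicate 2. Endothelial genes summed to 42036 and 46314 CPM, all on Mir126a with Mir126b at 0, and smooth muscle and stromal genes to 23481 and 29892 CPM. Neural and glial genes summed to 249.8 and 377.2 CPM, of which Mir338 held 243.0 and 366.9 CPM. In that list 4 of 9 genes were at 0 (Mir9-2 and the 3 Mir124a copies), all of which share 22-base windows, so their zeros set no limit on the level. Epithelial genes summed to 184.6 and 116.5 CPM, and the liver gene Mir122 stood at 491.0 and 175.7 CPM.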

How the data were processed

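MicroRNA libraries of 2 animals were analysed, made per the labels from total RNA with a size range below 30 bases. The deposited values are raw read counts per miRNA gene in 3 columns (without strand, sense, antisense). Per the deposited descriptions the build was mm10 and the annotation GENCODE M21. No aligner, version or trimming step is named in the sources used here. The sense column was recognised from its totals and from Mir497 and Mir497b. All 2202 identifiers matched the annotation. Of the reads in each file, 42.6% and 46.4% aligned to several places and were counted on no gene, and the 4 summary rows stayed out of totals. Sense counts were scaled to 1e6 per library. Detected means at least 2 CPM in both. Tests were exact conditional binomial tests in scipy 1.17.1 (log2 ratios add 0.5 to each count). They were checked on simulated data that held counting error only, so the check does not cover variation between animals. TMM factors came from edgeR 4.0.16 in R 4.3.3. Shared windows were searched on both strands of annotated precursors, leaving out those that overlap the gene. A genome sequence was not used here. RefSeq gave mature RNAs for all 8 members. The named genes are all members, all genes with the seed, 2 lists of growth-related genes, leading or zero genes of the cell type marker lists and the 2 genes on either side of the top member in rank. Members and lists were chosen with earlier results of these data known. Both samples carry 1 donor entry, read as the strain, and the labels' replicate and animal numbers were taken to mean separate animals. If they are not, the spread is technical. Alternatives covered scaling, strand, filters, fold limit, window length and leaving out an animal.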

Additional observations from a re-analysis of the deposited data

Results flagged for a closer look

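The antisense column, which the comparisons do not use, held reads on 1 member above the 3 counts that a count of 0 allows. Mir497b had 2010 antisense reads in replicate 1 and 2427 in replicate 2, and no sense read. These equal the sense counts of Mir497, which Mir497b overlaps over 84 bases on the other strand. The sense column was recognised in part from this pair, so the split is no independent check of strand. No other member had an antisense read in either library.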

How the results depend on the processing

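The family's share of 0.484% became 0.508% in the unstranded column, where Mir497 stood at 0 and 5 members were detected, 0.198% of all reads in the files, and 0.384% without the 2 members that share a 22-base window. It ran from 0.481% to 0.487% with either animal left out. The count of 0 members called was 2 with no fold limit and 0 with a 1.5-fold limit, TMM factors, median-of-ratios size factors, unstranded counts or no filter. Leaving out an animal leaves no second library for that comparison. With median-of-ratios size factors the log2 ratios of Mir16-1 and Mir16-2 changed sign, to 0.00058 and 0.0090, both without passing the test. Detection of 6 members held at 1 and 5 CPM and with either animal left out. The log2 partner ratios ran from -0.64 to -0.42 for Mir15a over Mir16-1, 0.92 to 0.98 for Mir15b over Mir16-2 and 1.93 to 2.02 for Mir195a over Mir497 with either animal left out, and the last could not be computed without strand. Windows of 18 bases also left 2 members with shared sequence. No paired analysis was possible because there is 1 group.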
